A study of Rattus norvegicus with 8 samples.

Results

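The 66 genes described here are named as genes of mitochondrial ribosomal proteins, which all but Mrps36 encode, and were measured by RNA sequencing in the diaphragm, the main muscle of breathing, of 8 Sprague-Dawley rats, an outbred stock. They are the rows of a deposited count table of 17055 gene symbols that are named Mrpl or Mrps with a number and an optional letter and that hold at least 80 counts summed over the 8 libraries. In 4 animals a myocardial infarction (MI) was made by ligating the left anterior descending coronary artery through the opened chest, and 4 Sham animals had the surgery without the ligation. All 8 diaphragms were taken 16 weeks after surgery, each gave 1 library, and the replicates are numbered 1 to 4 in MI and 5 to 8 in Sham. The Sham animals therefore share the thoracotomy and the anaesthesia with the MI animals, and infarct size is not given in the labels.

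Mitochondria make a small set of respiratory chain proteins on ribosomes of their own. The RNA of these ribosomes comes from the mitochondrial genome, while all of their proteins are encoded in the nucleus, made in the cytosol and imported. Some descend from proteins of the bacterial ribosome and others were added during the evolution of mitochondria. The small subunit reads the messenger RNA and the large subunit joins the amino acids. Muscle that works continuously, such as the diaphragm, is rich in mitochondria.

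Of 68 rows with such a name, Mrpl36 and Mrpl30 were listed at 0 in all 8 libraries and are not among the 66. The cytosolic ribosomal protein genes Rps6, Rps9, Rpl8, Rpl7a and Rplp2 were also listed at 0, so a 0 in this table does not show that a transcript was missing. The members with the fewest counts were Mrpl1 with 768, Mrps10 with 1259 and Mrpl2 with 1733 summed counts. By name 39 members belong to the large and 27 to the small subunit, and all 66 passed the filter on low counts. Another 3 rows, mrpl11, mrpl24 and mrpl9, are written in lower case and were not counted. Libraries held 7941402 to 24967251 counts, 0.555% to 0.699% of them from the members, and skeletal muscle markers such as Ckm, Acta1 and Myh7 were abundant in every library, with a summed level of 118137 to 156500 counts per 1000000 (CPM). The floor of 3 counts lay at 0.120 to 0.378 CPM.

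Levels are CPM after scaling between libraries. Read counts grow with transcript length, and no lengths were used, so levels are compared between animals and not between genes. Mean CPM ran from 6.69 for Mrpl1, part of a mobile stalk of the large subunit, through 11.5 for Mrps10, 15.1 for Mrpl2 and 22.1 for Mrps26, up to 276.5 for Mrps14, 277.9 for Mrpl17, 278.0 for Mrps36 and 282.4 for Mrpl12. The median member had a standard deviation of 0.12 on the log2 scale among animals of a group, against 0.20 for all genes tested, whose mean level was lower. The median was 0.11 for respiratory chain genes and 0.14 for cytosolic ribosomal protein genes, so a spread of this size was not particular to the members.

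Most members had slightly higher values in MI than in Sham. The log2 fold change was above 0 for 57 of 66 members, 86.4%, against 48.7% of the 10522 genes tested, and its median was 0.11 against -0.0070 for all genes. The middle 50% of members lay between 0.05 and 0.18. No member passed the test: at an adjusted p under 0.05 edgeR's quasi-likelihood test called 0 members and 0 of 10522 genes (0%), and limma-voom called 0 members. DESeq2 called 14 of 10518 genes (0.133%) and 0 members, and gave no adjusted p for Mrpl43. The smallest adjusted p of a member was 0.601 with edgeR and 0.217 with DESeq2, the latter for Mrpl32. At an unadjusted edgeR p under 0.05, 12 members were higher in MI, where 3.67% of all genes were, and 0 were lower, where 4.47% of all genes were. The 4 MI values all lay above the 4 Sham values in 10 members, against 2.09% of all genes, and all below in 0 members, against 2.46%. Members go up and down together within an animal, so these counts are not counts of independent genes. In whole tissue, fewer cells of a type and less RNA per cell cannot be told apart.

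**Figure D1:**
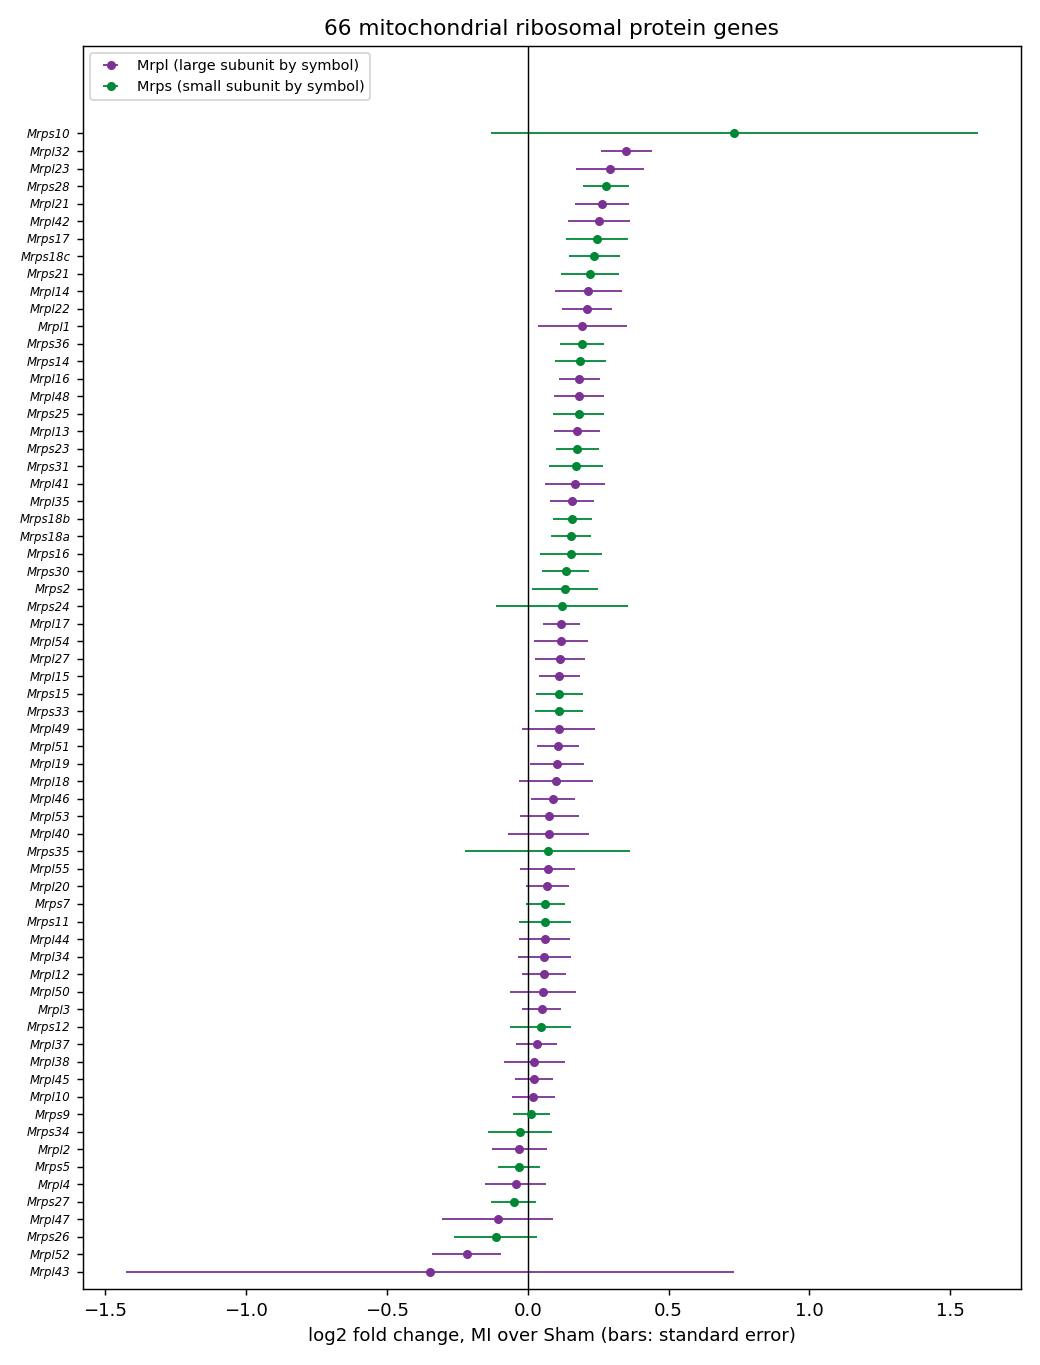
Log2 fold change of MI over Sham for each of the 66 genes (horizontal axis), ordered by value, with bars for the standard error from edgeR and colours for the subunit in the symbol. Most points lie to the right of 0 at under 0.3, both colours are spread through the order, and Mrps10 and Mrpl43 at the ends have errors far wider than the rest.

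The mean level of the whole set overlapped between the groups. The mean over members was 6.29, 6.12, 6.07 and 6.07 log2 CPM in MI replicates 1 to 4 and 6.14, 5.95, 6.00 and 6.09 in Sham replicates 5 to 8. MI replicate 1 was the highest, and Sham replicates 5 and 8 lay above MI replicates 3 and 4, so the groups overlapped. Without Mrpl43 and Mrps10, whose levels separate among animals as described further on, the means were 6.33, 6.20, 6.20 and 6.19 in MI and 6.22, 6.06, 6.07 and 6.14 in Sham, and only Sham replicate 5 lay within the MI range. With all members the group means were 6.14 ± 0.107 in MI and 6.05 ± 0.088 in Sham (SD, n = 4 each). Their difference of 0.092 fell to 0.034 without MI replicate 1, an animal in which Mrpl43 and Mrps10 were both high. With Mrpl43 and Mrps10 left out the difference was 0.104, and MI replicates 2 to 4, at 6.20, 6.20 and 6.19, lay above the Sham mean of 6.12. The median log2 fold change of all members went from 0.11 to 0.07 without MI replicate 1. Compared with its own mean over the 8 animals, a member was higher in 54, 42, 44 and 36 of 66 cases in MI replicates 1 to 4 and in 45, 13, 10 and 25 cases in Sham replicates 5 to 8. Sham replicate 5 was thus on the MI side, and Sham replicates 6 and 7 were the lowest. Over all genes tested these shares stayed between 49.1% and 52.8% in every library.

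The number of members at an unadjusted p under 0.05 changed when single libraries were left out. It was 2 without MI replicate 1, 5 without MI replicate 4, 4 without Sham replicate 7 and 6 without either Sham replicate 6 or Sham replicate 8, all by edgeR's quasi-likelihood test. Without Sham replicate 5 the groups did not overlap in 21 members, and without MI replicate 2 in 16. Leaving out a library changes the test of every gene and can end an overlap in any gene. The shares over all genes were not counted in these settings, so whether the changes are particular to the members was not tested. The animals' label numbers fall in a low range, which holds Sham replicate 5 beside MI replicates 1 and 2, and a high range with the other 5. What the ranges stand for is not stated in the labels. In the low range the members' mean level was 6.29 and 6.12 log2 CPM in MI against 6.14 in Sham, and in the high range 6.07 and 6.07 in MI against 5.95, 6.00 and 6.09, so MI and Sham overlapped in both. In the high range this rested on Mrpl43 and Mrps10: without them the values were 6.20 and 6.19 in MI against 6.06, 6.07 and 6.14 in Sham, with no overlap, while in the low range 6.33 and 6.20 in MI still lay on either side of 6.22 in Sham. With the range in the model, 4 members stood at an unadjusted p under 0.05, and the share over all genes was not counted there either.

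Markers of red blood cells were higher in MI on average. All 6 tested red blood cell genes, with none at 0, had an unadjusted edgeR p under 0.05 and higher mean values in MI. At such a p, 3.67% of all genes tested were higher and 4.47% lower in MI. The groups did not overlap in 2 of the 6, where 2.09% of all genes were higher without overlap. The summed level of red blood cell genes was 369 to 806 CPM in MI against 236 to 378 CPM in Sham. The 6 genes had a median log2 fold change of 1.10, and 5 of the 6 were among the 14 genes that DESeq2 called. Among the MI animals the red blood cell sum was lowest in replicate 1, where the members were highest. Fibroblast markers, with Col1a2 listed at 0, summed to 1994 to 3531 CPM in MI and 1875 to 2589 in Sham. Of 8 tested, 5 had a log2 fold change above 0 and 3 below, with a median of 0.10. Fap and Lum were among 3 with an unadjusted edgeR p under 0.05 and higher values in MI. All 8 were above their own mean in MI replicate 4, but only 1 in MI replicate 1 and 2 in MI replicate 2. Macrophage markers, with none at 0, summed to 116 to 198 and 121 to 290 CPM, all 10 had a log2 fold change below 0, and 1, Cd163, had an unadjusted p under 0.05. Adipocyte markers summed to 213 to 473 CPM in MI and 178 to 254 in Sham, and endothelial markers to 301 to 427 and 319 to 384 CPM. Fast fibre markers, at 50329 to 79166 and 55360 to 81792 CPM, and slow fibre markers, at 24958 to 27835 and 22754 to 31496 CPM, overlapped widely between groups. Animals differed within both groups. Of 9 slow fibre markers, 8, 8, 1 and 6 were above their own mean in MI replicates 1 to 4, and 8, 1, 1 and 9 in Sham replicates 5 to 8. Of 11 fast fibre markers, 7, 1, 11 and 1 were above it in MI, and 3, 11, 5 and 2 in Sham, in the same order. Of 10 skeletal muscle markers tested, 2 had a log2 fold change above 0 and 8 below, with a median of -0.11. None of these 10 had an unadjusted edgeR p under 0.05. The part of these cells in the members' values was not tested.

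Members of both subunits were mostly above 0, by similar medians. In the large subunit 34 of 39 members had a log2 fold change above 0, with a median of 0.10, and in the small subunit 23 of 27, with a median of 0.13. Each subunit had 6 members higher in MI at an unadjusted p under 0.05, where 3.67% of all genes were. The difference of the medians, large minus small, was -0.03 and stayed negative under every alternative tried, between -0.07 and -0.02. The mean log2 CPM of the large less that of the small subunit, a value that depends on transcript lengths and is read only between animals, was 0.25, 0.15, 0.23 and 0.20 in MI replicates 1 to 4 and 0.30, 0.28, 0.30 and 0.20 in Sham replicates 5 to 8. It averaged 0.21 ± 0.044 in MI and 0.27 ± 0.045 in Sham (SD, n = 4 each), with overlap. Without Mrpl43 and Mrps10, a choice made after their values were seen, it was 0.18 ± 0.027 and 0.20 ± 0.031. Placing Mrps30 and Mrps18a in the large subunit, where they sit in the structure of the mammalian particle, and leaving out Mrps36 gave medians of 0.10 for 41 and 0.13 for 24 members.

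Members with a bacterial counterpart and those specific to mitochondria were both mostly above 0. Of 37 members with a bacterial counterpart 33 were above 0 with a median of 0.12, and 8 of them did not overlap between groups. Of 27 mitochondria-specific members 22 were above 0 with a median of 0.09, and 2 did not overlap. All members without overlap were higher in MI, as were 2.09% of all genes tested. Of the 3 members named for the bacterial protein S18, Mrps18c was placed with those that have a bacterial counterpart. Mrps18a and Mrps18b were placed as specific to mitochondria, and Mrps18a is 1 of the 2 without overlap there. Mrpl55 and Mrps36 were placed in neither class, and whether the classes differ was not tested.

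Among the members without overlap, the large subunit gene Mrpl32, whose product is matured by a protease of the inner membrane before assembly, had the smallest p. It stood at 63.2, 53.9, 54.9 and 59.4 CPM in MI and 50.7, 45.4, 43.4 and 41.8 CPM in Sham. All MI animals were above all Sham animals, with Sham replicate 5 the nearest. The log2 fold change was 0.35 ± 0.09 (SE), at an edgeR p of 0.00281 before and 0.601 after adjustment over all genes.

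Mrps28, a small subunit protein, was at 56.1, 52.2, 56.0 and 58.3 CPM in MI and 49.6, 43.6, 47.3 and 42.7 in Sham. The 4 MI values were close to each other, and Sham replicate 5 was again the highest of its group. Its log2 fold change was 0.28 ± 0.08 (SE), with an unadjusted edgeR p of 0.00614. Mrpl32 and Mrps28 kept an unadjusted p under 0.05 in all 15 settings tried, Mrpl21 in 13 and Mrps18c in 12.

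Mrpl22 and Mrpl23 have bacterial counterparts at the tunnel through which the new chain leaves the large subunit. Mrpl22 was at 69.5, 58.8, 58.8 and 57.4 CPM in MI and 57.1, 52.1, 49.9 and 52.4 in Sham. MI replicate 4 and Sham replicate 5 were nearly equal, and MI replicate 1 stood apart. Mrpl23 was at 36.8, 27.0, 27.9 and 29.3 CPM in MI and 25.4, 25.9, 21.4 and 26.3 in Sham, so the lowest MI value and the highest Sham value were again close. The log2 fold changes were 0.21 ± 0.09 and 0.29 ± 0.12 (SE), and without MI replicate 1 they were 0.14 and 0.17.

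The other large subunit members without overlap were Mrpl21, Mrpl16 and Mrpl17. Mrpl21 was at 51.1 ± 5.68 CPM in MI and 42.6 ± 1.98 in Sham (SD, n = 4 each), with a difference on the log2 scale of 0.26 ± 0.10 (SE). Mrpl16, whose bacterial counterpart lies near the site of peptide bond formation, was at 217.3 ± 12.9 and 191.4 ± 9.57 CPM (0.18 ± 0.07). Mrpl17 was at 289.3 ± 13.5 and 266.5 ± 2.52 CPM (0.12 ± 0.07), and its 4 Sham values lay within 263.0 to 268.9 CPM.

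3 members carry the name of the bacterial small subunit protein S18. Mrps18c, with its place in the small subunit, was at 39.5, 32.7, 32.8 and 37.5 CPM in MI and 30.9, 30.3, 30.9 and 28.8 in Sham, a log2 fold change of 0.24 ± 0.09 (SE). Mrps18a, which sits in the large subunit, was at 78.1 ± 2.79 in MI and 70.1 ± 3.06 in Sham (SD, n = 4 each), with a difference on the log2 scale of 0.15 ± 0.07. Neither overlapped between the groups. Mrps18b, a small subunit protein, was at 223.5, 206.7, 205.6 and 225.3 CPM in MI and 206.8, 189.2, 188.3 and 187.2 in Sham, where replicate 5 lay within the MI range (0.16 ± 0.07). The remaining small subunit member without overlap, Mrps23, was at 69.2 ± 3.68 and 61.3 ± 3.06 CPM (0.18 ± 0.08).

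**Figure D2:**
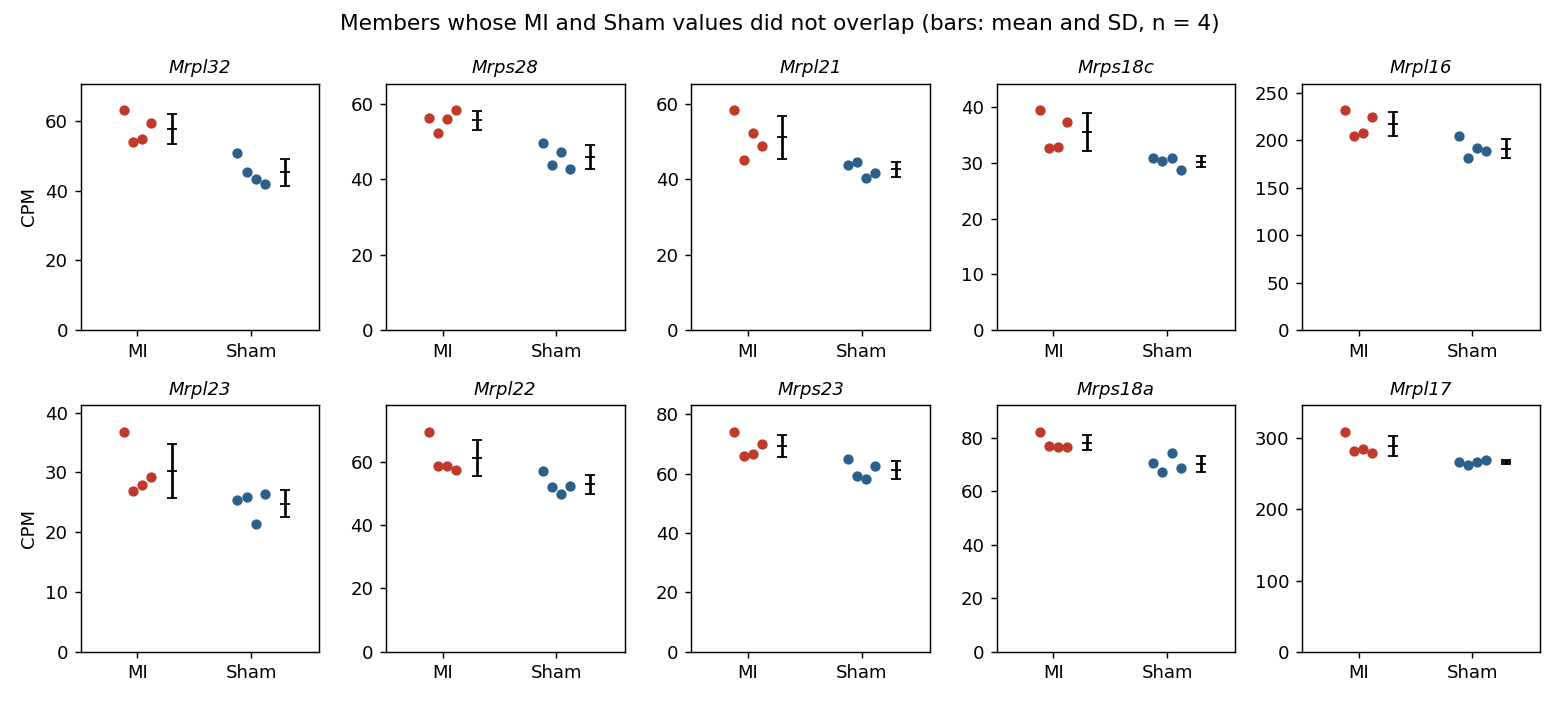
CPM in each animal (points) of the 10 genes whose MI and Sham values did not overlap, with the mean and SD of each group (bars, n = 4) and a vertical axis from 0. Every MI point lies above every Sham point in these panels, by margins that are small beside the level, as in Mrpl22 with 57.4 CPM as the lowest MI and 57.1 as the highest Sham value.

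Mrps36, now named Kgd4 for its role as a subunit of the alpha-ketoglutarate dehydrogenase complex, is a member by name only. It was at 296.5 ± 18.2 CPM in MI and 259.5 ± 16.6 in Sham (SD, n = 4 each), with a difference on the log2 scale of 0.19 ± 0.08 (SE), with overlap. Mrps14 was at 294.4 ± 28.7 and 258.7 ± 19.9 CPM (0.19 ± 0.09), also with overlap. Mrpl42 and Mrps17 overlapped too, with log2 fold changes of 0.25 ± 0.11 each and unadjusted edgeR p of 0.0419 and 0.0486.

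Further members with known roles overlapped between the groups. Mrpl12, of the stalk that binds translation factors, was at 288.0 ± 17.6 CPM in MI and 276.8 ± 16.8 in Sham (SD, n = 4 each), with a log2 fold change of 0.06 ± 0.08 (SE). Mrps12, of the decoding site, was at 41.5 ± 4.18 and 40.3 ± 4.35 CPM. The log2 fold changes were 0.06 ± 0.09 (SE) for Mrpl44, which has an RNase III fold, 0.02 ± 0.07 for Mrpl45, which lies near the tunnel exit on the membrane side, 0.13 ± 0.08 for Mrps30 and 0.19 ± 0.16 for Mrpl1.

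The 9 members below 0 were Mrpl43, Mrpl52, Mrps26, Mrpl47, Mrps27, Mrpl4, Mrps5, Mrpl2 and Mrps34, and none had an unadjusted edgeR p under 0.05. Mrpl52, a mitochondria-specific large subunit protein, was at 43.4, 32.0, 29.3 and 34.5 CPM in MI and 42.6, 38.1, 38.1 and 43.3 in Sham. MI replicate 1 lay with the Sham animals and the other 3 MI animals below them. The log2 fold change was -0.22 ± 0.12 (SE), and without MI replicate 1 it was -0.35 with no overlap. Mrps26 stood at -0.11 ± 0.15, Mrps27 at -0.05 ± 0.08, Mrpl4 at -0.04 ± 0.11, Mrps5 at -0.03 ± 0.07 and Mrpl2 at -0.03 ± 0.10.

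A few members had separate levels among the animals that did not follow the groups. A gene was counted when the largest gap between neighbouring animals in order of log2 CPM was at least 0.5 and at least 50% of the range, with exact 95% counting intervals apart. This held for 3 members, Mrpl43, Mrps10 and Mrps24, and for 247 of all 10522 genes (2.35%). In 191 of the 247 a single animal stood apart, and 56 genes had 2 or more animals on each side, as Mrpl43 and Mrps10 do.

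Mrpl43, a mitochondria-specific large subunit protein, was at 64.8, 4.95, 4.06 and 5.42 CPM in MI and 34.6, 4.76, 31.9 and 31.5 CPM in Sham. The values fell near 5 CPM in 4 animals, 3 MI and 1 Sham, near 32 to 35 CPM in 3 Sham animals, and at 64.8 CPM in MI replicate 1. The counting interval of that library, 60.8 to 69.0 CPM, lay clear of those of the 3 Sham animals, the highest of which ended at 37.9 CPM. The gap of 2.51 on the log2 scale, 5.69-fold, was matched or passed by 19 genes tested (0.181%). Both groups hold high and low animals, and the log2 fold change of -0.35 ± 1.08 (SE) moved between -2.42 and -0.0033 over the settings, the first without MI replicate 1. Only 1 other gene tested, Ntn4, divided the same animals by this rule. In the RefSeq gene order Mrpl43 overlaps Twnk, the mitochondrial DNA helicase, written Peo1 in the table, which was at 32.8 to 41.8 CPM in all 8 animals with no separate levels. The libraries did not keep strand, so reads from the shared stretch cannot be told apart.

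Mrps10, a small subunit protein with a bacterial counterpart, was at 24.2, 23.7, 3.89 and 3.69 CPM in MI and 4.39, 4.89, 4.21 and 22.9 CPM in Sham. MI replicates 1 and 2 and Sham replicate 8 were high and the other 5 animals low, with a gap of 2.19, 4.58-fold, that 23 genes (0.219%) matched or passed. No other gene tested divided these animals in this way. The high animals were not those of Mrpl43: MI replicate 1 was high in both, MI replicate 2 in Mrps10 alone and Sham replicates 5 and 7 in Mrpl43 alone. The log2 fold change was 0.73 ± 0.86 (SE) and turned to -0.08 with the range of animal numbers in the model. Its neighbours Ubr2, at 55.9 to 67.5 CPM, and Trerf1, at 0.762 to 2.21 CPM, had no separate levels.

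Mrps24 was at 23.3 CPM in Sham replicate 6 and at 37.1 to 53.8 CPM in the other 7 animals, a gap of 0.67 that 795 genes tested (7.56%) matched or passed. By the same rule 10 other genes had Sham replicate 6 alone on the low side and 12 had it alone on the high side. The log2 fold change of Mrps24 was 0.12 ± 0.23 (SE) and -0.08 without that library. Just outside the rule, Mrpl47 was at 52.2 CPM in MI replicate 2, 51.0 in Sham replicate 5 and 49.1 in Sham replicate 7, against 30.4 to 37.9 CPM in the other 5, a gap of 0.37. Its gene model overlaps those of Actl6a, at 32.4 to 38.5 CPM, and Ndufb5, at 731 to 986 CPM, neither with separate levels. Mrps35 spread from 54.4 CPM in MI replicate 2 to 144.4 in MI replicate 1 with a gap of 0.45, and Mrpl18 was at 199.4 CPM in MI replicate 1 against 127.4 to 152.0 CPM elsewhere.

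**Figure D3:**
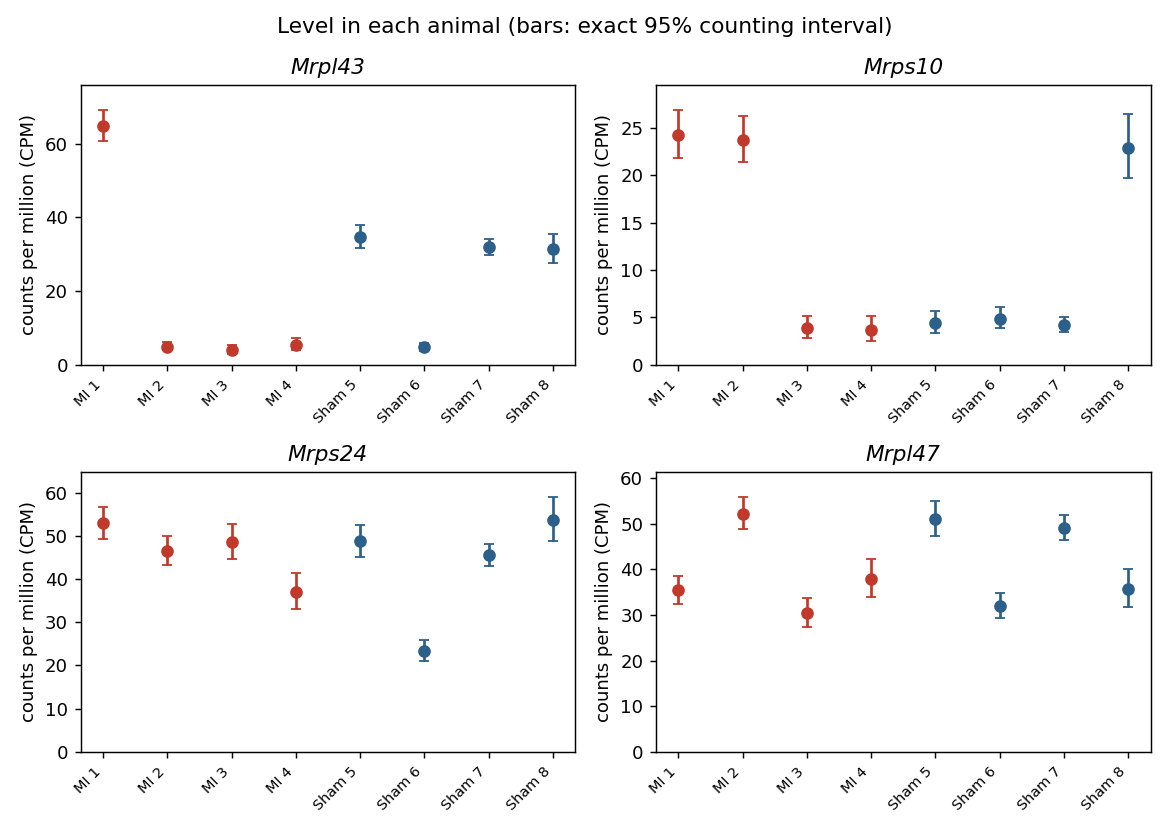
CPM of Mrpl43, Mrps10, Mrps24 and Mrpl47 in each animal (MI 1 to 4 and Sham 5 to 8), with exact 95% counting intervals and a vertical axis from 0. Mrpl43 and Mrps10 show high and low animals in both groups with intervals far apart, Mrps24 is low in Sham 6 alone, and Mrpl47 falls near 50 CPM in 3 animals and at 30.4 to 37.9 CPM in 5.

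Promoters are shown for every member without overlap between the groups, and for Mrps10 with its separate levels, that matched an entry in the RefSeq table (GRCr8). Each stretch is the 150 bases before the start of transcription, and capitals mark the motifs searched for there: GCGCATGCG, the site of the factor NRF1, and CCGGAAG, a site of ETS factors such as GABP, on either strand. NRF1 and GABP are the regulators classically tied to nuclear genes for mitochondrial proteins. The stretches are chr17:55260501-55260650 on the plus strand for Mrpl32, chr14:9122907-9123056 on the minus strand for Mrps18c, chr1:207116780-207116929 on the plus strand for Mrpl23, chr10:42845760-42845909 on the plus strand for Mrpl22. The others are chr10:73496088-73496237 on the plus strand for Mrps23, chr9:22367381-22367530 on the minus strand for Mrps18a, chr1:169575700-169575849 on the minus strand for Mrpl17 and chr9:21122454-21122603 on the minus strand for Mrps10.
Mrpl32: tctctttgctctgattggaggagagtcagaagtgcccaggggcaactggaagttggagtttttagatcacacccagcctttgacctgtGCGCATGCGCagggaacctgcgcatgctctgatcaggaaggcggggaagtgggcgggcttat
Mrps18c: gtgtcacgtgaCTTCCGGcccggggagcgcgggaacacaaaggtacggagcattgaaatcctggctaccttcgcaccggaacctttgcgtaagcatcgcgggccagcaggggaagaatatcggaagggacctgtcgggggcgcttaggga
Mrpl23: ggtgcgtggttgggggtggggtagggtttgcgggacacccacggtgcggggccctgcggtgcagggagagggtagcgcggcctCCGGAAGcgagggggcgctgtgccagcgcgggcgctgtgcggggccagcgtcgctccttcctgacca
Mrpl22: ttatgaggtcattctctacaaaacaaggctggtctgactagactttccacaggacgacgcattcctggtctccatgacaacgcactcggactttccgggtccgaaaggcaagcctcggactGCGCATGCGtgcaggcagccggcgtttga
Mrps23: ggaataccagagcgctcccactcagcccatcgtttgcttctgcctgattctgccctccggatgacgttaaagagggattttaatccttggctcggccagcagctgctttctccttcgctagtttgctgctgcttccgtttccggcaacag
Mrps18a: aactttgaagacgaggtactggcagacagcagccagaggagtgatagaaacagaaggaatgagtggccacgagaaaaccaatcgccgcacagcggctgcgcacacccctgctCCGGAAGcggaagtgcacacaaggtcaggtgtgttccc
Mrpl17: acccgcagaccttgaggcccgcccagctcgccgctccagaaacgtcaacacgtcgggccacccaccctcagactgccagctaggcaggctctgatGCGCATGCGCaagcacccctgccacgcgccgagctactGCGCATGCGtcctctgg
Mrps10: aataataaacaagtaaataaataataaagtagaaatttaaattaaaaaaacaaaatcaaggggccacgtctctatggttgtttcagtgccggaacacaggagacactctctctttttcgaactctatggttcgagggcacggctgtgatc
The NRF1 letters began 62 bases before the start in Mrpl32, where the match on the other strand overlaps it by all but 1 base, 29 before in Mrpl22, and 55 and 17 before in Mrpl17. The ETS letters began 67 bases before the start in Mrpl23, 38 before in Mrps18a and 139 before in Mrps18c, there on the other strand. Mrps23 and Mrps10 had none of these letters in the stretch shown. In Mrps10 the ETS letters begin directly after that stretch, at the start of transcription.

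Such letters were common among the members. Windows ran from 250 bases before to 50 after the start, and a gene was counted if any of its promoters held the letters. The NRF1 letters stood in 5 of the 53 matched members (9.43%). This was against 1.70% of all 27457 genes with a promoter entry and 3.38% of the 8479 of these tested here. The ETS letters stood in 16 members (30.2%), against 9.63% and 18.4%, and AAGATGGCG, a site of YY1 that contains the letters of a start codon, in 8 (15.1%), against 1.99% and 3.93%. The E-box CACGTG stood in 4 (7.55%, against 7.08% and 9.65%) and the GC box GGGCGG in 28 (52.8%, against 36.0% and 63.1%). At least 1 of the first 3 was found in 16 of 31 large and 9 of 22 small subunit members. Among the matched members with a log2 fold change below 0, the ETS letters stood in Mrpl52, Mrps26, Mrps27 and Mrpl4. Mrpl47, Mrps5 and Mrpl2 lacked the ETS letters, and none of these members had the NRF1 letters. Whether such letters go with the fold change was not tested. A match describes letters and not binding. The members outside the 53 are Mrps12, Mrpl21, Mrpl16, Mrpl43, Mrps34, Mrpl38, Mrps24, Mrps28, Mrpl35, Mrpl19, Mrps35, Mrpl15 and Mrpl13.

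Regulators of mitochondrial gene expression, some of them factors behind these motifs, had differences of both signs. Of 15 regulators of mitochondrial gene expression tested, 5 had a log2 fold change above 0, the median was -0.04, and 0 had an unadjusted edgeR p under 0.05. Gabpa, the DNA-binding subunit of GABP, was at 52.0, 48.8, 48.8 and 48.0 CPM in MI and 44.6, 46.3, 43.7 and 44.8 in Sham, without overlap (log2 fold change 0.14 ± 0.07, SE). It was the only 1 of the 15 without overlap, and 2.09% of all genes were higher without overlap. Its edgeR p was 0.0827 before and 0.639 after adjustment. Nrf1 was at -0.02, Yy1 at 0.13, Ppargc1a at -0.05, Gabpb1 at -0.14 and Hcfc1 at -0.28 on the same scale. The largest difference in size was that of Myc, at -0.51 ± 0.33 (SE).

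Ribosomal proteins under other names were on the same side as the members. All 7 had a log2 fold change above 0 with a median of 0.08. Ict1, a peptidyl-tRNA hydrolase built into the large subunit, was at 88.3 ± 7.89 CPM in MI and 74.7 ± 2.99 in Sham (SD, n = 4 each), without overlap (0.24 ± 0.08, SE). It was the only 1 of the 7 without overlap, and 2.09% of all genes were higher without overlap. Chchd1, of the small subunit, had 0.25 ± 0.09 with MI replicate 2 below Sham replicate 5. Dap3, a GTP-binding protein of the small subunit, had 0.05.

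The genes that serve the mitochondrial ribosome were more mixed. Of 11 translation factors 7 were above 0, at a median of 0.02, and 0 had an unadjusted edgeR p under 0.05. Of 24 assembly factors 16 were above 0 with a median of 0.05, and the RNA helicase Dhx30 was the 1 with an unadjusted p under 0.05, at -0.31 ± 0.12 (SE). Of 19 mitochondrial tRNA synthetases only 6 were above 0, with a median of -0.06, and Vars2 at -0.35 ± 0.14 and Aars2 at -0.59 ± 0.24 had an unadjusted p under 0.05. Of 22 genes of mitochondrial transcription and RNA handling 14 were above 0 with a median of 0.07. Among these, Tefm, the transcription elongation factor, had 0.31 ± 0.10 and Pnpt1, an RNA-degrading enzyme, 0.19 ± 0.07, both with an unadjusted edgeR p under 0.05 (0.00734 and 0.0168). None of the genes in these lists passed an adjusted p of 0.05 in edgeR. Over all genes tested, 3.67% were higher and 4.47% lower in MI at an unadjusted edgeR p under 0.05.

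Respiratory chain and cytosolic ribosome genes give the scale for the members. Of 73 nuclear genes for respiratory chain and ATP synthase subunits 67 were above 0, with a median of 0.17. In this list 28 were higher in MI at an unadjusted edgeR p under 0.05, where 3.67% of all genes were. DESeq2 called 1 of the list, against 0.133% of all genes. The median deviation of this list from each gene's own mean was highest in MI replicate 1, at 0.18 log2 CPM, and lowest in Sham replicate 7, at -0.15. The members' was 0.16 in MI replicate 1 and -0.10 in both Sham replicates 6 and 7. Of 76 cytosolic ribosomal protein genes 71 were above 0, with a median of 0.13. In this list 3 (3.95%) were higher in MI at an unadjusted edgeR p under 0.05, near the 3.67% of all genes. The median deviation of the cytosolic list in MI replicate 2 stood at -0.11, where the members were at 0.02. These lists share all 8 animals with the members, and differences between lists were not tested.

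**Figure D4:**
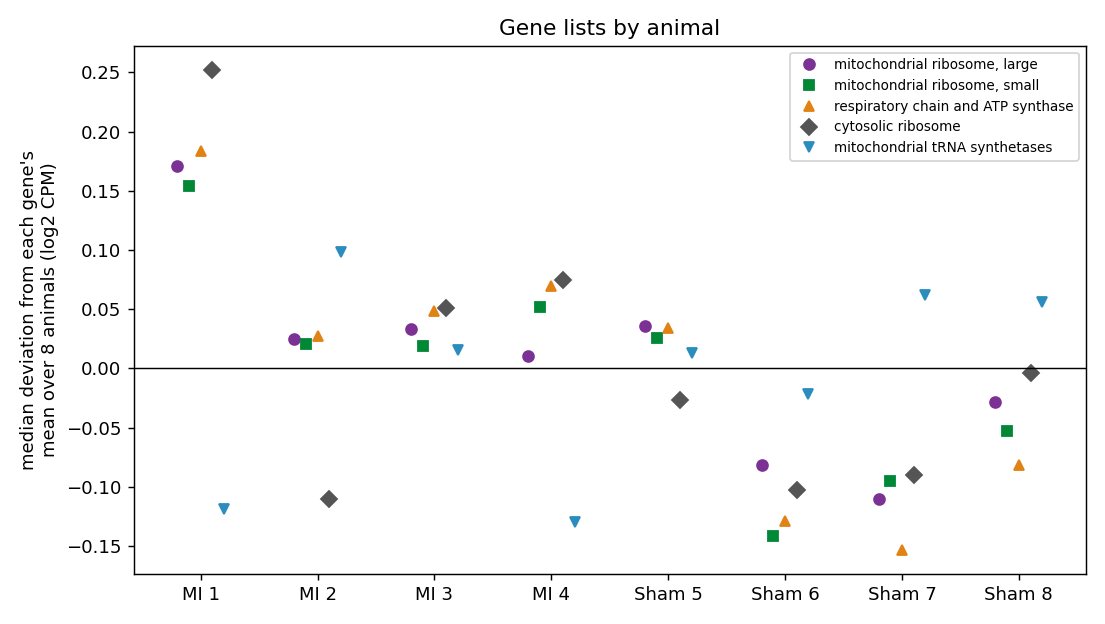
Median deviation of each gene list from each gene's mean over the 8 animals, in log2 CPM (vertical axis), for the 2 subunits of the mitochondrial ribosome, the respiratory chain with ATP synthase, the cytosolic ribosome and the mitochondrial tRNA synthetases, 1 point per animal. The 2 subunits lie together in every animal, MI 1 is high in all but the synthetases, and Sham 5 lies with the MI animals in both subunits.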

How the data were processed

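Per the labels' protocols, TRI Reagent was used to extract total RNA of frozen diaphragm, and libraries came from the SMARTer Ultra Low input kit, which does not keep strand, and the KAPA Hyper kit. The deposited table holds raw read counts per gene symbol. Build rn5 and the tools Cufflinks, TopHat, TopHat2, bcl2fastq and STAR 2.5.0a are named in the submitters' processing notes. The sources used here do not give the counting program or its annotation. Reads shared by similar or overlapping genes may be split or lost.

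Counts were tested with edgeR 4.0.16 in R 4.3.3 (filterByExpr by group, then TMM factors and the two-sided quasi-likelihood test with robust estimation). Benjamini-Hochberg adjustment ran over 10522 genes at a threshold of 0.05. Nothing states more than 1 animal per library or a pairing, so p-values measure the spread between these libraries. Counting intervals are exact 95% Poisson intervals and, like the floor of 3 counts, cover counting error only. Mean levels used log2 CPM with a prior count of 2. Names were matched to RefSeq genes of GRCr8 (65 by current symbol, 1 by an older one); since this is not rn5, only names, gene order and promoter sequences with their own coordinates were taken from it. Mitochondrially encoded RNAs were not analysed here. The procedures were tested on simulated data.

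Alternatives were RLE size factors, library totals alone, no filter, 1 CPM in 4 libraries, DESeq2 1.42.0, limma-voom (limma 3.58.1), a term for the range of animal numbers, each library left out, subunits by structure, a summed count of at least 800, a gap of 1 and a prior count of 0.5. Counting the lower-case rows and leaving out Mrpl43 and Mrps10 were added after seeing the data. The members and lists were chosen with earlier results of these data known. Named members are the 6 with the smallest p in each direction, all without overlap or with separate levels, the 4 highest and 4 lowest in CPM, and Mrps18a, Mrps18b, Mrps18c, Mrps30, Mrps36, Mrpl12, Mrpl44, Mrps12 and Mrpl45, with up to 2 genes of each list. Mrpl42, Mrps17, Mrps34, Mrps35, Mrpl18, Dap3, Nrf1, Yy1, Ppargc1a, Gabpb1 and Myc, and neighbouring genes, were named after their values were seen.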

Additional observations from a re-analysis of the deposited data

Results flagged for a closer look

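In 7 of the 58 sets of 4 animals examined (29 named members in each group), the highest or lowest animal stood apart from the other 3 by a share of the range above Dixon's 95% critical value, which chance gives in about 1 in 20 sets. Some members were named for their separate levels, Mrpl43 and Mrps10 with 3 of the 7 sets among them, so the count of 7 is not to be read against that rate. In MI this was replicate 1 each time: Mrpl43 at 64.8 CPM with the others at 4.06 to 5.42, Mrpl22 at 69.5 CPM with the others at 57.4 to 58.8, and Mrps18a at 82.2 CPM with the others at 76.4 to 77.0. In Sham the animals differed. Mrpl43 was at 4.76 CPM in replicate 6 with the others at 31.5 to 34.6, and Mrps10 at 22.9 CPM in replicate 8 with the others at 4.21 to 4.89. Mrpl4, a large subunit protein with a bacterial counterpart, was at 78.9 CPM in replicate 7 with the others at 99.7 to 104.3, and Mrps18b at 206.8 CPM in replicate 5 with the others at 187.2 to 189.2.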

How the results depend on the processing

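No setting called a member at an adjusted p under 0.05, and 21 of 29 named members kept their sign in all 15 settings. The number of all genes called was 14 with DESeq2 and 0 to 1 with single libraries left out, the 1 without MI replicate 1 and without MI replicate 3. Members higher in MI at an unadjusted p under 0.05, 12 in the design used, were 7 with library totals alone, 4 with a term for the range of animal numbers and 2 to 15 with single libraries left out, and lower members 0 to 2, the 2 being Mrpl43 and Mrpl52 without MI replicate 1. Members without overlap, 10 in the design used, were 5 with library totals alone and 9 to 21 with libraries left out when higher, and 0 to 1 when lower, the 1 without MI replicate 1. The shares over all genes at this p or without overlap were not counted in these settings. The median log2 fold change of the members stayed between 0.07 and 0.13, and 53 to 58 of the 66 were above 0. Mrps10 turned to -0.076 with that term. With libraries left out, log2 fold changes crossed 0 for Mrpl4 (-0.14 to 0.014), Mrpl44 (-0.0052 to 0.11), Mrpl45 (-0.012 to 0.060), Mrpl47 (-0.29 to 0.00013), Mrps12 (-0.0064 to 0.11), Mrps24 (-0.079 to 0.24) and Mrps5 (-0.065 to 0.0080). The causes were not tested. No paired analysis was possible because the labels number the animals separately and the groups share no number. Each group had 4 animals, and the median standard error of a member was 0.09 on the log2 scale. Differences of the size seen here did not pass adjustment over all genes. Mrpl1, Mrps10 and Mrpl2, the members with the fewest counts, had standard errors of 0.16, 0.86 and 0.10. The part of depth in these errors was not tested.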
